A study of Mus musculus with 6 samples.

Results

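The claudin genes were examined across 6 RNA-sequencing libraries of NMuMG cells, an epithelial line from normal mouse mammary gland. The members were the listed claudin rows of the deposited count table, Cldn1, Cldn2, Cldn4, Cldn6, Cldn7, Cldn12 and Cldn23, which are 7 of 18512 entries. Cldn3 was listed as well but had no row under that symbol in the counts read here, so it was not analysed. One group received the vehicle dimethylsulfoxide (DMSO), another received TGF-β (5 ng/ml), and the third received this dose of TGF-β together with 50 uM 2APB. Each group had 2 libraries. TGF-β is a cytokine that drives epithelial-to-mesenchymal transition, and 2APB (2-aminoethoxydiphenylborane) is a small molecule used to inhibit store-operated calcium entry. The paper also proposes that 2APB raises calcium entry through the channel ORAI3. All cells were starved of serum for 4 h first. The study's results text gives 24 h of treatment, while its methods place 2APB ahead of TGF-β, and the exact schedule of these libraries was not settled here. No group had 2APB alone, so an effect of 2APB by itself cannot be told apart from one that needs TGF-β, and all libraries came from 1 cell line.

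Claudins are small membrane-spanning proteins that form the strands of tight junctions, and the mix of claudins in a strand sets which ions and solutes pass between epithelial cells. Some, such as the protein of Cldn2, form channels for small cations and water, whereas those of Cldn1, Cldn4 and Cldn7 are mostly known as barrier claudins. In epithelial-to-mesenchymal transition, junction genes are commonly repressed by factors of the Snail and Zeb families, which bind E-boxes.

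Total counts ran from 71840570 to 79473182 per library, and every deposited count was an even number, so the smallest count above 0 was 2. The 4 epithelial markers did not move together. The keratin Krt8 had means of 243539, 384356 and 714868 normalized counts for DMSO, TGF-β and TGF-β+2APB, and Krt8 and Krt18 were called higher in all 3 comparisons. Cdh1 (E-cadherin) had means of 90890.4, 52926 and 38059, and was called lower in both comparisons with DMSO, as was Epcam, which had only 52 to 158 counts. The 4 basal or myoepithelial markers summed to 2.08 to 15.8 normalized counts per library. The 3 measured leukocyte markers (Ptprc, Cd68 and Csf1r) summed to 2330 normalized counts in TGF-β+2APB replicate 2, against 245 to 629 in the other 5 libraries. The 3 measured fibroblast markers summed to 88.8 to 90.4 with DMSO, 616 to 709 with TGF-β and 805 to 946 with TGF-β+2APB. Most of the sum came from Pdgfra with DMSO and from Pdgfrb in the treated groups. Pdgfrb had means of 11.1, 572 and 609 for DMSO, TGF-β and TGF-β+2APB. Pdgfra, with means of 76.5, 89.5 and 266, was called higher with TGF-β+2APB and was not called between TGF-β and DMSO (edgeR FDR 0.431), and Dcn had 0 to 4 counts in every library. The part of these markers in the claudin results was not tested, and in bulk RNA a change in the number of cells of a type cannot be told apart from a change in RNA per cell.

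Of the 7 claudins, 3 reached the minimum mean of 20 normalized counts needed for testing, namely Cldn2, Cldn4 and Cldn12. With TGF-β, Cldn4 and Cldn2 both rose. With TGF-β+2APB, Cldn4 rose further still, Cldn2 fell below its DMSO level and Cldn12 rose slightly. A gene was called changed at a false discovery rate (FDR) of 0.05 or less in edgeR's quasi-likelihood test, adjusted over all 13353 genes tested. On that rule 2 of the 3 tested claudins were called between TGF-β and DMSO, both higher, where 41.5% of all tested genes were called, 21.8% higher and 19.7% lower. All 3 were called between TGF-β+2APB and DMSO, 2 higher and 1 lower, where 52.8% of genes were called, 25.6% higher and 27.2% lower. Between TGF-β+2APB and TGF-β, 1 was higher and 1 was lower, where 17.5% of genes were called, 6.58% higher and 10.9% lower. Members are few and were tested only if they were expressed in some group, so these shares describe the 3 genes and no more. The comparisons with DMSO share the same DMSO libraries.

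**Figure D1:**
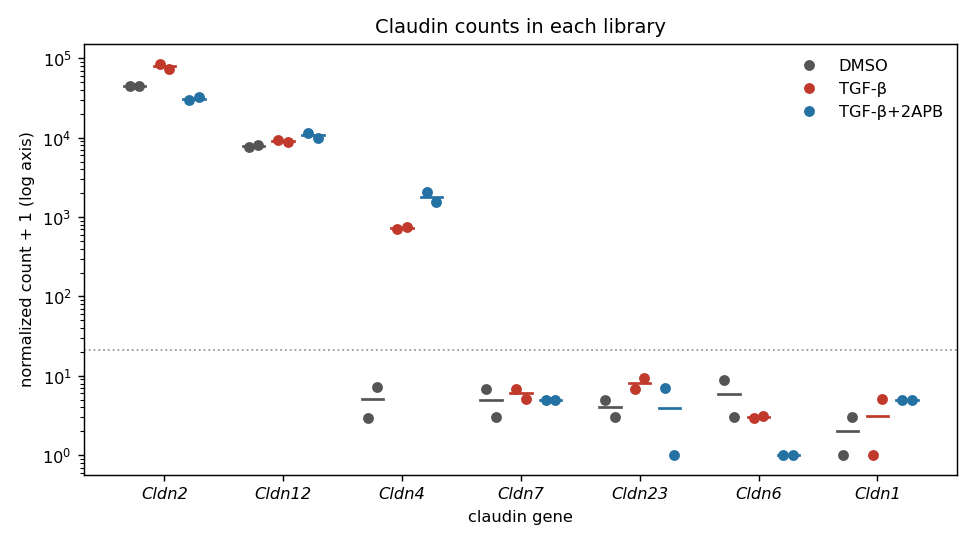
Normalized count plus 1 on a log axis for the 7 claudins, with 1 point per library, grey for DMSO, red for TGF-β and blue for TGF-β+2APB, short bars for group means and a dotted line at the minimum mean count. Cldn4 rose from the level of the 4 barely detected claudins with DMSO to between 713 and 2087 in the treated libraries.

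Cldn4 encodes a barrier claudin that limits cation passage. It lies on the minus strand at chr5:134945119-134946934 (GRCm38), is annotated with a single exon and overlaps no other annotated gene. The 250 bases before the annotated starts of Cldn4 and Cldn2 are shown because these 2 members had the strongest changes with treatment, and capitals mark matches to the motifs searched. The sequences are from RefSeq on GRCm38.p6, 5′ to 3′ on the strand of the gene, at chr5:134946935-134947184 (minus) and chrX:139800558-139800807 (plus).
Cldn4: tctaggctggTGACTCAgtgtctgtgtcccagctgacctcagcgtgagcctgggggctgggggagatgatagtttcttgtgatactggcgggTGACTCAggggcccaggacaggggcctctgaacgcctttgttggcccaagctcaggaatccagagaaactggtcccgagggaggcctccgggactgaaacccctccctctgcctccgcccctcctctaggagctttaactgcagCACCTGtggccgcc
Cldn2: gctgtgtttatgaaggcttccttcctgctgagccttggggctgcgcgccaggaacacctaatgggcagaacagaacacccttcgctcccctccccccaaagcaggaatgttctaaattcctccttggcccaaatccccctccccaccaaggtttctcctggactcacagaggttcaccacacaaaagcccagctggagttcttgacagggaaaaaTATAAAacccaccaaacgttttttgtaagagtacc
The motifs were chosen after results were known and were searched on both strands in 32851 such windows. The Cldn4 window held 2 matches to the AP-1 element TGACTCA, at 240 to 234 and 158 to 152 bases before the start. It also held 1 E-box, CAGGTG on the opposite strand, at 14 to 9 bases before the start, and these matches did not overlap each other. At least 1 TGACTCA was present in 4.46% of all windows and at least 2 in 0.167%, and CAGGTG was present in 17.2%. The Cldn2 window held no TGACTCA and no CAGGTG, and had 1 TATAAA at 35 to 30 bases before the start, a motif found in 12.4% of windows. The other motifs searched were GTCTAGAC and GTTAAT, and neither was in these 2 windows. GC content was 62% in the Cldn4 window and 52% in that of Cldn2, beside a median of 52.4% over all windows.

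Cldn4 was nearly undetected with DMSO, at counts of 2 and 6. The TGF-β libraries had 732 and 716 counts, and the TGF-β+2APB libraries 2108 and 1550. Both treated groups lay far above DMSO, and the TGF-β+2APB libraries both lay above the TGF-β libraries. Its normalized count, scaled to the mean library, was 4.08 ± 2.99 with DMSO, 728 ± 21.2 with TGF-β and 1808 ± 394 with TGF-β+2APB (SD, n = 2 each). The DMSO counts fall in the range of 0 to 8 seen for the claudins below the testing minimum.

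Between TGF-β and DMSO, Cldn4 rose by 7.45 on the log2 scale (SE 0.36, edgeR FDR 0.000102). The summed counts of 1448 against 8 gave a ratio of 181, with an exact 95% interval of 70.2 to 664 that covers counting error only and was computed on halved counts. Cldn4 was number 44 by size among the 2914 genes that rose with TGF-β. Between TGF-β+2APB and DMSO it rose by 8.76 (SE 0.36, edgeR FDR 3.97e-05), at number 62 of 3414 genes that rose. The summed counts of 3658 against 8 gave a ratio of 449, with an exact interval of 175 to 1648. The size of both changes rests on 8 counts, and without 1 or the other DMSO library the log2 change was 6.85 or 8.44 after TGF-β, and 8.16 or 9.76 after the combination.

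The difference between the 2 treated groups is not set by the low DMSO counts. Cldn4 was 2.48-fold higher with TGF-β+2APB, a log2 change of 1.31 (SE 0.22, edgeR FDR 0.0163), at number 182 of the 879 genes that rose. Without TGF-β+2APB replicate 1, which had the highest Cldn4, the log2 change was 1.04 and the call was lost (edgeR FDR 0.0617). Without TGF-β+2APB replicate 2, which had the high leukocyte markers, it was 1.52 (edgeR FDR 0.0172).

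Cldn2 encodes the cation- and water-permeable claudin of leaky epithelia. It lies on the plus strand at chrX:139800828-139811386 in the GENCODE annotation, and its promoter window is the other sequence printed above. That window ends at chrX:139800807, before a RefSeq start that lies upstream of the GENCODE one. Motif distances for Cldn2 are counted from the RefSeq start. The DMSO libraries had 46084 and 43684 counts, those given TGF-β had 87972 and 70456, and those given TGF-β+2APB had 30038 and 32748. The TGF-β libraries were the highest and the TGF-β+2APB libraries the lowest. The normalized count was 45208 ± 115 with DMSO, 79393 ± 8893 with TGF-β and 31020.2 ± 1818 with TGF-β+2APB (SD, n = 2 each).

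With TGF-β, Cldn2 rose 1.76-fold over DMSO, a log2 change of 0.81 (SE 0.097, edgeR FDR 0.00175), and 1202 of the 2914 genes that rose did so by as much or more. With TGF-β+2APB it fell by 0.54 on the log2 scale below DMSO (SE 0.096, edgeR FDR 0.00522). Against TGF-β it fell by 1.36 (SE 0.098, edgeR FDR 0.00311), to 0.391 of the TGF-β level. The direction from DMSO was thus opposite in the 2 treated groups, and the test between those groups was the one just given. The fall below DMSO was lost without TGF-β+2APB replicate 1, at a log2 change of -0.49 (edgeR FDR 0.0536). Without TGF-β+2APB replicate 2 it was -0.58 (edgeR FDR 0.0299).

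Cldn12 encodes a claudin that lacks the usual PDZ-binding tail and has been linked to calcium permeability. It lies on the minus strand at chr5:5489537-5514958. Counts were 7830 and 7708 in the DMSO libraries, 9508 and 8502 after TGF-β, and 11492 and 10092 after TGF-β+2APB. The group means lay close together, at 7829 ± 189, 9041 ± 310.3 and 10666 ± 1004 normalized counts (SD, n = 2 each).

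Only the comparison of TGF-β+2APB with DMSO was called for Cldn12. There it rose 1.36-fold, a log2 change of 0.45 (SE 0.090, edgeR FDR 0.00843). The log2 change was 0.21 between TGF-β and DMSO (SE 0.090, edgeR FDR 0.118) and 0.24 between TGF-β+2APB and TGF-β (SE 0.090, edgeR FDR 0.129), and neither was called. The 1 call was lost without DMSO replicate 1 (0.42, FDR 0.0789), without DMSO replicate 2 (0.47, FDR 0.0600) or without TGF-β+2APB replicate 1 (0.34, FDR 0.0818), all by edgeR. None of the 3 RefSeq promoter windows of Cldn12 held any of the motifs searched.

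**Figure D2:**
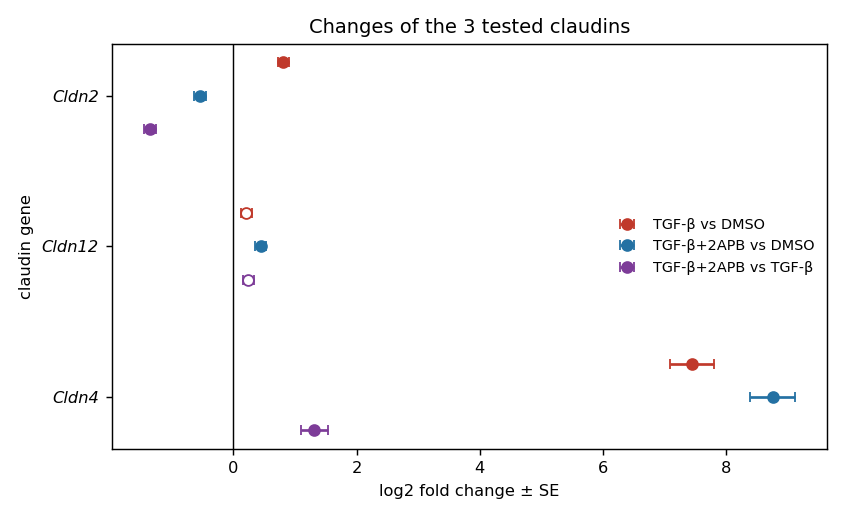
Log2 fold change ± SE of the 3 tested claudins in the 3 comparisons, where filled points were called at the FDR threshold and open points were not. Cldn2 rose by 0.81 with TGF-β and fell by 0.54 with TGF-β+2APB, both against DMSO, while Cldn4 rose in both.

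The remaining members, Cldn1, Cldn6, Cldn7 and Cldn23, were not tested, and their 24 values were 0 to 8 counts each, with 5 at 0 and a sum of 80. In the order DMSO, TGF-β, TGF-β+2APB, Cldn1, a core barrier claudin of the skin and other epithelia, had 0 and 2 counts, then 0 and 4, then 4 and 4. Cldn7, a claudin of basolateral membranes in many epithelia, had 6 and 2, then 6 and 4, then 4 and 4. Cldn6, best known from embryonic epithelium, had 8 and 2, then 2 and 2, then 0 and 0. Cldn23 had 4 and 2, then 6 and 8, then 6 and 0. No difference between groups was detectable at this depth, since all of these counts lie within a few counts of 0. E-boxes were found before the second annotated start of Cldn7, at 97 to 92 and 57 to 52 bases, and before Cldn6, at 93 to 88 bases, and GTTAAT before Cldn1, at 241 to 236 bases.

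To compare members with each other, normalized counts were divided by the length of the merged exons in kb. Per kb, Cldn2 was highest in every group, with means of 13596, 23877.5 and 9329 for DMSO, TGF-β and TGF-β+2APB. Cldn12 followed at 1852, 2138 and 2523, and Cldn4 came after it at 2.25, 401 and 996. Among 12693 genes ranked per kb, Cldn2 held ranks 186, 92 and 273, Cldn12 ranks 2069, 1773 and 1469, and Cldn4 ranks 12442, 6710 and 3819. Cldn2, Cldn12 and Cldn4 kept this order in each library with no overlap between neighbours. With DMSO, Cldn4 lay within the spread of the 4 barely detected members.

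The relative make-up of the counts of the 7 members also differed between the groups. As a share of the summed counts per kb of the 7 members, Cldn2 was 88.0% ± 0.267 with DMSO, 90.3% ± 0.772 with TGF-β and 72.6% ± 3.75 with TGF-β+2APB (SD, n = 2 each). Cldn12 was 12.0% ± 0.284, 8.12% ± 0.563 and 19.6% ± 1.99. Cldn4 was 0.0145% ± 0.0107, 1.53% ± 0.202 and 7.75% ± 1.74. The sum of all 7 per kb was 15457 ± 7.49 with DMSO, 26425 ± 2735 with TGF-β and 12852 ± 89.8 with TGF-β+2APB. These shares and sums are descriptions, and no test was run on them. They leave out Cldn3, which had no row, and all claudin rows outside the members. Among those rows is Cldn25, which had more normalized counts than Cldn4 in every group. They are thus not the make-up of all claudin RNA in these cells.

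**Figure D3:**
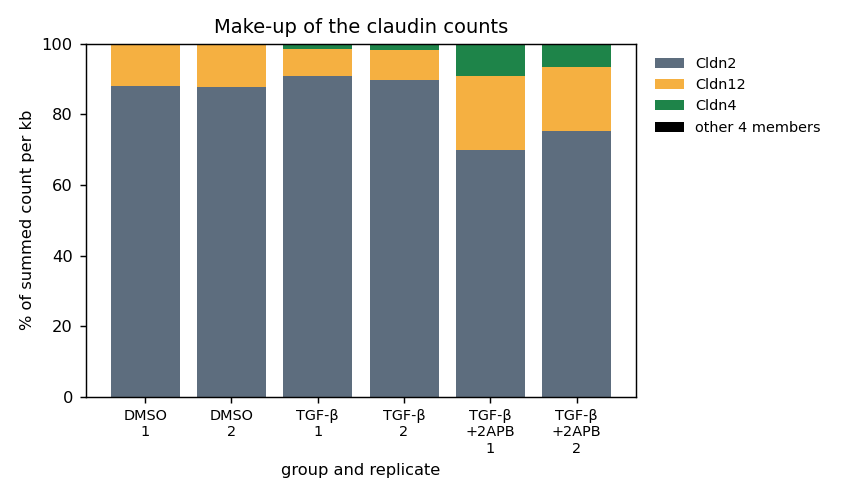
Stacked bars of each claudin's percent of the summed count per kb of merged exons over the 7 members, with 1 bar per library. Cldn2 made up 69.9% to 90.9% of each bar and Cldn4 reached 6.52% to 8.99% in the TGF-β+2APB libraries.

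A further 12 rows were named as claudins, and 7 of them were below the minimum at no more than 8 counts in any library. Cldn15, which like Cldn2 encodes a cation-channel claudin, had 34 and 28 counts in the DMSO libraries, 8 and 4 after TGF-β, and 24 and 30 after TGF-β+2APB. The TGF-β libraries stood below all others, and Cldn15 fell by 2.35 with TGF-β (SE 0.45, edgeR FDR 0.00951). It was 2.13 higher on the log2 scale with TGF-β+2APB than with TGF-β (SE 0.45, edgeR FDR 0.0302), and its difference from DMSO there was -0.22 (edgeR FDR 0.668). Cldn22 had 14 and 6 counts in the DMSO libraries, 32 and 30 after TGF-β and 36 and 36 after TGF-β+2APB. Its changes from DMSO were 1.63 (edgeR FDR 0.0350) and 1.82 (edgeR FDR 0.0189), and the comparison of the treated groups gave 0.19 (edgeR FDR 0.785). These are low counts. Cldn15 passed the minimum mean through the DMSO and TGF-β+2APB libraries, with group means of 31.2 and 26.7 normalized counts beside 5.97 with TGF-β. Cldn22 passed it through the treated groups, at 31.1 and 35.6 beside 9.98 with DMSO. The differences of both are thus not independent of that filter. Neither gene had at least 10 counts in every library, so that stricter filter removed both from the test. By edgeR, the fall of Cldn15 with TGF-β was no longer called without DMSO replicate 1 (FDR 0.0657), and its difference between the treated groups was no longer called without any 1 of the DMSO or TGF-β+2APB libraries (FDR 0.0861 to 0.126). The Cldn22 calls were lost without DMSO replicate 2 (edgeR FDR 0.167 and 0.0976). They were also lost without either TGF-β library or TGF-β+2APB replicate 2 in the first comparison (edgeR FDR 0.0549 to 0.0618), and without either TGF-β+2APB library in the second (edgeR FDR 0.0531 and 0.0546).

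The row named Cldn25 had means of 3023, 3389.6 and 3936 normalized counts, and rose by 0.38 with TGF-β+2APB over DMSO (SE 0.071, edgeR FDR 0.00647). Its symbol matches more than 1 current gene, so its identity is uncertain. Its call was lost without either DMSO library or TGF-β+2APB replicate 1 (edgeR FDR 0.0513 to 0.0725). Cldn20 had 22 to 44 counts and Cldn18 had 12 to 34 counts per library, and neither was called in any comparison. For Cldn20 the log2 changes were 0.47, 0.22 and -0.25 for TGF-β against DMSO, TGF-β+2APB against DMSO and TGF-β+2APB against TGF-β, and for Cldn18 they were 0.60, 0.043 and -0.55.

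By distance between profiles over the 6 libraries, the genes most like Cldn2 were Asf1b (0.0848), Pbk (0.264) and Clhc1 (0.272), and 22 genes lay within 0.5. Those most like Cldn4 were Angpt4 (0.755), Pkp1 (1.04) and Ucn2 (1.15), and 0 genes lay within 0.5. Those most like Cldn12 were Irx3 (0.0743), Mtfr1 (0.0886) and Snx9 (0.105), and 2059 genes lay within 0.5. The distance is Euclidean on log2 normalized counts relative to DMSO, so a gene with small changes such as Cldn12 has many near neighbours. Angpt4, Pkp1 and Ucn2 had DMSO means of 1.03, 9.10 and 0 normalized counts, beside 4.08 for Cldn4. Their distances from Cldn4 thus rest on few DMSO counts and on the 0.5 added before taking log2. Around the genes themselves, the neighbour within 50 kb of Cldn4 that was matched to a row by symbol was Cldn13, which had 0 counts in 5 libraries and 6 in TGF-β+2APB replicate 1. Near Cldn2, Ripply1 was higher than DMSO with TGF-β (2.08, edgeR FDR 0.00806) and with TGF-β+2APB (2.03, edgeR FDR 0.00657), so unlike Cldn2 it lay above DMSO in both treated groups. Morc4, the nearest neighbour of Cldn2, was higher with TGF-β+2APB than with DMSO (0.64, edgeR FDR 0.00595) and than with TGF-β (0.55, edgeR FDR 0.0299), where Cldn2 fell. Tbc1d8b, the other neighbour of Cldn2, and Gtpbp10, near Cldn12, were not called in any comparison, and 1700015F17Rik, also near Cldn12, had 0 to 6 counts. The neighbours were looked at after results were known.

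More of the other membrane proteins of tight junctions fell than rose. Of 12 listed, 10 were tested. Against DMSO, 2 rose and 5 fell after TGF-β, and 1 rose and 6 fell after TGF-β+2APB. Between the treated groups 0 rose and 3 fell. Over all tested genes, 21.8% rose and 19.7% fell after TGF-β, and 25.6% rose and 27.2% fell after TGF-β+2APB. Between the treated groups 6.58% of all genes rose and 10.9% fell. The median log2 changes were -0.68, -0.84 and -0.45, beside -0.010, -0.0033 and -0.0037 over all genes. Marveld2, the tricellular junction protein tricellulin, fell, with log2 changes against DMSO of -2.17 after TGF-β and -2.47 after the combination. Cxadr, an adhesion receptor, fell in all 3 comparisons, at -0.98 and -1.96 against DMSO and -0.99 between the treated groups. Crb3, a polarity determinant, fell to -2.11 for TGF-β+2APB against DMSO and -1.40 against TGF-β. Lsr, which recruits tricellulin, was at -0.72 for TGF-β. Jam2, an adhesion molecule, went the other way, at 2.04 and 2.45 against DMSO. Ildr2, a relative of Lsr, was at 0.60 for TGF-β against DMSO and at -0.72 between the treated groups.

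Of 21 scaffold and polarity genes, all tested, 5 rose and 9 fell in each comparison with DMSO, and 3 rose and 1 fell between the treated groups. The share of all tested genes that rose was 21.8% after TGF-β and 25.6% after TGF-β+2APB, close to 5 of 21. The share that fell was 19.7% and 27.2%, and between the treated groups 6.58% rose and 10.9% fell. The median log2 changes of the list were -0.30, -0.28 and 0.041. Tjp3, a scaffold that binds claudin tails, fell, at -2.30 after TGF-β and -2.19 after the combination. Prkcz, an atypical protein kinase C, fell as well, at -1.48 and -1.91. Cgn (cingulin), a junction plaque protein, was at -1.21 for TGF-β. Magi1, another junction scaffold, was at -1.80 for TGF-β+2APB and -0.64 between the treated groups. The angiomotin-like genes Amotl1 and Amotl2 and the polarity gene Pard6g rose in both treated groups. Their log2 changes were 1.18, 0.93 and 1.10 after TGF-β, and 1.38, 1.61 and 1.61 after the combination. Between the treated groups Amotl2 was at 0.67, Pard6g at 0.52 and the row named Inadl (Patj) at 0.50.

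Among 11 claudin partners and turnover genes, 9 were tested. Against DMSO, 2 rose and 3 fell after TGF-β, and 2 rose and 4 fell after TGF-β+2APB. Between the treated groups 1 rose and 2 fell. Over all tested genes 21.8% and 25.6% rose against DMSO, near 2 of 9, and 19.7% and 27.2% fell. Between the treated groups 6.58% of all genes rose and 10.9% fell. The median log2 changes of the list were -0.084, -0.13 and -0.071. St14 and Spint1 passed the minimum mean count with few DMSO counts. With at least 10 counts required in every library, 7 genes were tested. Of these, 1, 0 and 0 rose and 3, 4 and 2 fell in the 3 comparisons. Wnk4, a kinase that phosphorylates claudins, fell in all 3 comparisons, with log2 changes of -1.72 and -3.67 against DMSO and -1.95 between the treated groups. Epcam, which stabilizes Cldn7 protein, was at -1.42 and -0.97 against DMSO, and Spint2, a protease inhibitor, at -1.33 and -1.56. St14, the protease matriptase, rose in all 3, at 3.72 and 5.51 against DMSO and 1.80 between the treated groups. Its DMSO counts were only 4 and 2, against 44 and 38 after TGF-β and 134 and 156 after the combination, so the size of both changes from DMSO rests on those few counts. The tetraspanin Cd81 was at 0.42 for TGF-β, and Cd9, of the same family, at -0.49 between the treated groups. Spint1, an inhibitor of matriptase, had 4 and 8 counts in the DMSO libraries and 14 and 138 after TGF-β+2APB. It was called higher there (edgeR FDR 0.0423), and the call was lost without TGF-β+2APB replicate 2 and also without either DMSO library.

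Of 18 regulators of junction genes, 14 were tested. Against DMSO, 5 rose and 6 fell after TGF-β, and 6 rose and 5 fell after TGF-β+2APB. Between the treated groups 2 rose and 3 fell. Among all tested genes 21.8% and 25.6% rose against DMSO and 19.7% and 27.2% fell. Between the treated groups 6.58% of all genes rose and 10.9% fell. The median log2 changes of the list were -0.59, -0.0087 and 0.21. Requiring at least 10 counts in every library removed Snai1 and left 13 genes tested. Of these, 4, 5 and 2 rose and 6, 5 and 4 fell in the 3 comparisons. The transition factors Twist2, Snai1 and Zeb2 rose with TGF-β, at 2.10, 1.86 and 1.84. For TGF-β+2APB against DMSO, Snai1 was at 2.51, Zeb2 at 2.34 and Zeb1 at 1.49. The epithelial transcription factors Ehf, Elf3 and Cdx2 fell with TGF-β, at -3.19, -2.38 and -1.51. For TGF-β+2APB against DMSO, Ehf was at -4.09, Cdx2 at -3.74 and Hnf4a at -2.09. Between the treated groups Cdx2 was at -2.22, Ehf at -0.90 and Klf5 at -0.73, while Klf4 was at 1.85 and Elf3 at 0.89. All genes named from these 4 lists were called in the comparison given. Leaving out 1 library ended the calls of Ildr2, Epcam, Snai1 and Cd81 for TGF-β, of Epcam, Snai1 and Spint1 for TGF-β+2APB against DMSO, and of Elf3, Klf5, Pard6g, Inadl and Cd9 between the treated groups. Each of these was lost without a DMSO library, other than Elf3, which was lost without TGF-β+2APB replicate 1.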

How the data were processed

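Total RNA of NMuMG cells was sequenced as 50 bp reads, and the methods state 2 biological replicates per treatment. The authors deposited raw read counts per gene name, unnormalized, for 6 libraries. The submitters' processing notes name FastQC 0.11.2, TopHat2 2.0.13, DESeq2 1.6.1 and the mm10 build, whereas the paper's methods name a human build. The annotation, strand setting and treatment of multi-mapping reads are not given in the sources used here. All counts are even, and dividing them by 2 was one alternative. The table has 25 date-named entries and 4 that share a name.

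Counts were tested with edgeR 4.0.16 (R 4.3.3, limma 3.58.1), with TMM scaling, quasi-likelihood F-tests and Benjamini-Hochberg adjustment over the 13353 genes whose normalized counts averaged 20 or more, and 5159 entries were not tested. The 3 groups shared 1 model without covariates. Tables and figures used Python 3.11.15, pandas 2.3.3, scipy 1.17.1 and matplotlib 3.10.9. Profile distances used log2 of the normalized count plus 0.5. Gene positions and exon lengths were from GENCODE M21, matching 95.1% of tested entries, and promoters from RefSeq, which held 6 of the 7 members. P-values weigh each change against the spread between libraries, estimated jointly over the 3 groups. The SD over genes of the log2 difference between replicates was 0.368 with DMSO, 0.612 with TGF-β and 0.827 with TGF-β+2APB. The joint estimate thus does not give the spread of each group.

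In data simulated for TGF-β against DMSO with 13353 genes, 68 of 100 genes changed by 1 on the log2 scale were called. Of 100 changed by 2, 89 were called, as were 13 of 13153 unchanged genes. Far fewer genes changed there than in the data, where 41.5% were called, so these rates need not hold for the data.

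All members were named, as was every other claudin that was tested. Of each list, the 3 genes with the largest change in each direction among those called were named, and for each tested member the 3 nearest profiles. The members and lists were chosen with earlier results of these data known. Alternatives covered scaling, filters, DESeq2 1.42.0, fits of 4 libraries, a replicate block, halved counts, a stricter FDR and leaving out each library. Equal replicate numbers were not treated as pairs in the main model. The correlation of replicate differences between groups was 0.136, -0.429 and -0.258. These values cannot show whether samples of equal number were handled together, and the labels do not state it.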

Additional observations from a re-analysis of the deposited data

How the results depend on the processing

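The number of members called was 2, 3 and 2 for TGF-β against DMSO, TGF-β+2APB against DMSO and TGF-β+2APB against TGF-β. Requiring at least 10 counts in every library removed Cldn4 from the test and left 1 in the first and 1 in the last. At an FDR of 0.01 or less 1 was left in the last. Leaving out 1 library at a time gave 2 to 2, 1 to 3 and 1 to 2. The lowest values came without TGF-β+2APB replicate 1. Over 375 gene-level values under 16 settings for tested claudins, 336 kept direction and side of the threshold, 29 lost the call, 3 gained one and 7 changed sign, all of the last in Cldn18 and Cldn20, which were never called. For TGF-β+2APB against DMSO, leaving out 1 library gave -0.28 to 0.61 for Cldn20, and -0.66 to 0.52 for Cldn18, which was -0.018 with library size scaling and -0.030 under the exchanged block. For TGF-β+2APB against TGF-β, leaving out 1 library gave -0.77 to 0.17 for Cldn20. The cause was not tested.

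With a replicate block, the member counts were 2, 3 and 2, and calls of other claudins were lost for Cldn22 with TGF-β (FDR 0.0602) and Cldn15 between the treated groups (FDR 0.0721). Among the named list genes it ended the calls between the treated groups of St14 (FDR 0.0526), Pard6g (FDR 0.0667) and Klf5 (FDR 0.0825), all by edgeR. The block left 4737, 6358 and 1342 genes called by edgeR against 5548, 7044 and 2334, and exchanging the TGF-β+2APB numbers, chosen after seeing the data, gave 5706, 7232 and 2465. Between the treated groups DESeq2 called 3646 genes, a fit of those 4 libraries 878 and an FDR of 0.01 or less 601, and TGF-β against DMSO had 3369 at that FDR. Without 1 library the counts ran from 2782 to 7659, 4402 to 8996 and 856 to 5427. Library size scaling gave 3123 higher and 4057 lower for TGF-β+2APB against DMSO in place of 3414 and 3630. Depth limits Cldn4 with DMSO and the 4 untested members, where counts are at most 8.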
